A study of Mus musculus with 22 samples.

Results

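The 8 mouse genes whose RNA was lower both in embryonic stem cells (ESCs) lacking NF45 and in ESCs lacking its partners NF90 and NF110 are described here across all libraries of the series: Pcmt1, Zswim6, Ide, Btaf1, Nkain1, Apom, Lrig2 and Mbtd1. They are 8 of the 22330 genes in the deposited expression table. They were picked from measured values, namely a lower level in NF45 KO than in NF45 WT libraries and in NF90+NF110 KO than in WT input libraries, so these contrasts are given as a description: how many of the 8 limma called there follows from the choice and supports nothing. Comparisons that share some of the same input libraries are marked as such. Tests are read mainly from the immunoprecipitated RNA, whose libraries the choice did not use, although they come from the same experiments as the inputs.

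The cells were mouse ESCs grown in DMEM with serum (15% FBS), 1000 U of the cytokine LIF, the MEK inhibitor PD0325901 at 1 uM and the GSK3 inhibitor CHIR99021 at 3 uM, conditions shared by every group. RNA-seq with a stranded poly(A) kit covered NF45 WT and NF45 KO cells (n = 2 each). RIP-seq, which sequences RNA recovered with an antibody, used an antibody against NF90/NF110 in cells labelled NF90/NF110 WT, NF110 KO (the long form removed) and NF90+NF110 KO (both forms removed), with input RNA and immunoprecipitated (IP) RNA from each of 3 experiments per genotype and a stranded kit that depletes ribosomal RNA. Because the kits differ, NF45 libraries and RIP-seq libraries are never compared by a test. The libraries labelled NF45 WT carry the name Rev in the table header, and the sources used here state neither what Rev means, nor the KO alleles, nor whether replicates were separate clones or cultures. The p-values therefore measure only the spread between these libraries.

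NF45, the product of Ilf2, pairs with NF90 or NF110 as its shorter or longer partner. The partners meet through related dimerisation domains, NF90 and NF110 add double-stranded RNA-binding domains, and NF110 has an extended carboxyl end. The complexes were first purified as proteins that bind the ARRE-2 element of the interleukin 2 promoter, and have since been linked to transcription, splicing, RNA stability, translation and microRNA processing. The genes described here have varied roles. Pcmt1 encodes a methyltransferase that repairs isoaspartyl damage in proteins, and Ide the insulin-degrading enzyme, a zinc metalloprotease. Btaf1 encodes the ATPase that strips the TATA-binding protein TBP from DNA, and Mbtd1 an MBT-domain reader of methylated histones found in the TIP60 acetyltransferase complex. Zswim6 encodes a SWIM zinc finger protein. Nkain1 encodes a membrane partner of the sodium pump, Lrig2 a membrane protein with leucine-rich repeats and immunoglobulin-like domains, and Apom a lipocalin that carries sphingosine-1-phosphate on lipoproteins.

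Promoter windows are shown for Pcmt1 and Zswim6, which had the lowest NF90+NF110 KO to WT ratios among the 8 genes, and for Mbtd1. The windows of Pcmt1 and Mbtd1 also hold the start site of a neighbouring gene on the other strand, whose values are compared further on. Each window runs from 250 bases before to 50 bases after the RefSeq start site (GRCm38.p6), 5′ to 3′ on the gene's own strand. Pcmt1 lies at chr10:7681109-7681408 (minus strand), Zswim6 at chr13:107890015-107890314 (minus strand) and Mbtd1 at chr11:93885600-93885899 (plus strand). Capitals mark every match, on either strand, to the motifs searched: the TATA box TATAAA, the CCAAT box, the GC box GGGCGG, the E-box CACGTG, the ETS core CCGGAAG, the cyclic AMP response element TGACGTCA, the NRF1 palindrome, and GGAAAA, a purine stretch found in ARRE-2.
Pcmt1: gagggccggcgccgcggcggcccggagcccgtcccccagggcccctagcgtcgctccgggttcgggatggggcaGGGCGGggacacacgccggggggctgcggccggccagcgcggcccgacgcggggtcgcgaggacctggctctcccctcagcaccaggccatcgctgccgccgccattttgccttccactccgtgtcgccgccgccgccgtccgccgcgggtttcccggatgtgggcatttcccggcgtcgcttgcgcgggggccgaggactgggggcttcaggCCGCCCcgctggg
Zswim6: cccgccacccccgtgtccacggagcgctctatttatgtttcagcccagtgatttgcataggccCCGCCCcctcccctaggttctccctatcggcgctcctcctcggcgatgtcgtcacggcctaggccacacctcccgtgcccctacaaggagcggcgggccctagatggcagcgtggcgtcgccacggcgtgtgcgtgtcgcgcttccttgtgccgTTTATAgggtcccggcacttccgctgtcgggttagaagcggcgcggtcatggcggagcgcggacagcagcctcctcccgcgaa
Mbtd1: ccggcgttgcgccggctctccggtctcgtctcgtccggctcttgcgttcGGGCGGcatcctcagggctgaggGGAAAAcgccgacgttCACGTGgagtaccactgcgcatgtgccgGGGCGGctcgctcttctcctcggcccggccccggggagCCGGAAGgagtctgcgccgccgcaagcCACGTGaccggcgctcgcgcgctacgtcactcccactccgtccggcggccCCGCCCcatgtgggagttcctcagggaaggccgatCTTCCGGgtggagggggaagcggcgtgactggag

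All 8 genes matched a RefSeq promoter. Where several promoters were listed for a gene, the start farthest upstream of those listed was used, and its other starts were not examined. The RefSeq spans of Pcmt1 and Nkain1 reach farther upstream than the starts used. The GC box occurred in 5 of the 8 windows (Pcmt1, Zswim6, Nkain1, Lrig2 and Mbtd1), against 35.7% of 32851 promoters. GGAAAA was present in 4 (Btaf1, Apom, Lrig2 and Mbtd1), against 23.4%, and the ETS core in 3 (Btaf1, Apom and Mbtd1), against 8.86%. CCAAT was found in Ide and Lrig2 (37.4% of all promoters) and CACGTG in Nkain1 and Mbtd1 (7.15%). Zswim6 alone among the 8 held TATAAA, on the opposite strand 33 bases before its start (13.6% of all promoters, either strand), and Btaf1 alone held TGACGTCA, which directly adjoins its ETS core without sharing a base (1.79%). No window held the NRF1 palindrome (0.971%). No searched motif was common to all 8 windows. Base composition also varied, from 44% GC and 0 CpG in the window of Ide to 80% GC in that of Nkain1 and 78.7% in that of Pcmt1, with 44 CpG in both of the latter. The median promoter had 52.7% GC and 7 CpG. These matches are descriptions of the letters in the windows and do not show binding.

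NF45 libraries held 49.1 to 68.8 M reads in genes, IPs 14.1 to 19 M and inputs 9.53 to 11.9 M. Every one of the 8 genes passed the filter on low values in every comparison. Ilf2, the gene of NF45, fell from a mean of 286 FPKM (a fragment count normalised for length and depth) in NF45 WT to 3.86 in NF45 KO. The labels NF110 KO and NF90+NF110 KO were not checked here. All 8 ESC markers examined, among them Pou5f1 and Nanog, exceeded 1 FPKM and together summed to 3822 to 5271 in each library. The 7 fibroblast and feeder markers summed to 0.896 to 6.81 FPKM. The 4 markers of primed epiblast, a later state that ESCs can move towards, summed to 36.2 and 27.2 FPKM in NF45 WT and 45.5 and 51.5 in NF45 KO, higher in both KO libraries. Of these, Pou3f1 went the other way, at 0.71 and 0.74 in NF45 WT and 0.52 and 0.50 in NF45 KO. In inputs the 4 markers summed to 25.2 to 36 in WT and 27.7 to 38.9 in NF90+NF110 KO, which overlapped, as did the IPs (27.1 to 39.6 and 32.4 to 42.6). The 5 primitive endoderm markers summed to 3.47 and 4.09 in NF45 WT and 2.30 and 2.15 in NF45 KO. Their sum was higher in NF90+NF110 KO than in WT without overlap, at 5.25 to 5.78 against 2.65 to 4.49 in inputs and 6.31 to 7.33 against 3.58 to 6.21 in IPs. Gata4 was the largest part of these RIP-seq sums, at 3.84 to 4.48 in NF90+NF110 KO inputs against 1.31 to 2.98 in WT inputs. In IPs Gata4 overlapped, at 4.44 to 5.19 against 1.75 to 4.46. Sox17 was not higher in NF90+NF110 KO inputs, at 0.52 to 0.69 against 0.53 to 0.88 in WT inputs. No marker of these last lists was at 0 in every library of a set, and their part in the results was not tested. Median levels of chromosome 6 genes split the RIP-seq libraries: WT 1, NF110 KO 1 and 2 and NF90+NF110 KO 2 were at 0.22 to 0.25 from the mean of their set on the log2 scale, and the rest at -0.22 to -0.15. In the NF45 set this level was high in both WT and low in both KO libraries, where it cannot be told apart from genotype, and chromosomes 8, 13 and 14 also varied there. None of the 8 genes lies on chromosome 6, 8 or 14. The part of this split in any result was not tested beyond the within-split and adjusted values given with the results. In bulk RNA, fewer cells expressing a gene and less RNA per cell cannot be told apart.

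Pcmt1 showed the lowest NF45 KO to WT ratio of the 8 genes. Its FPKM was 27.5 and 24.8 in the NF45 WT libraries and 5.401 and 6.202 in the NF45 KO libraries. In the inputs it was 43.1, 40.3 and 40.6 in WT, 27.4, 30.1 and 34.3 in NF110 KO and 11.7, 8.57 and 11.3 in NF90+NF110 KO. The IP libraries gave 35.7, 39.2 and 37.5 in WT, 25.4, 30.0 and 32.1 in NF110 KO and 9.14, 7.88 and 8.94 in NF90+NF110 KO. The genotypes did not overlap in any of these sets, and NF110 KO lay between the others, nearer to WT. Log2 fold changes, on the log2(FPKM + 1) scale with limma's standard error, were -1.997 ± 0.10 for NF45 KO and -1.89 ± 0.12 for NF90+NF110 KO inputs. Reads behind these values were fewest in NF90+NF110 KO, with 188 to 259 per input.

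Ide, the other enzyme of protein turnover and repair, had the highest FPKM of the 8 in the NF45 WT libraries, at 76.0 and 73.7, against 32.7 and 35.9 in NF45 KO. Its inputs read 38.5, 41.1 and 45.6 in WT, 32.0, 29.7 and 35.8 in NF110 KO and 25.2, 22.6 and 25.4 in NF90+NF110 KO. Among IPs the values were 37.6, 38.1 and 41.7 in WT, 32.9, 35.04 and 40.5 in NF110 KO and 24.2, 21.4 and 25.1 in NF90+NF110 KO. NF110 KO was separate from WT in inputs but overlapped it in IPs, where NF110 KO 3 reached the WT range. NF90+NF110 KO lay below both in each set. The description by fold change was -1.10 ± 0.07 in NF45 KO and -0.75 ± 0.09 in NF90+NF110 KO inputs.

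Of the genes that act in the nucleus, Btaf1 read 23.2 and 24.2 FPKM in NF45 WT and 7.79 and 7.60 in NF45 KO, a log2 fold change of -1.50 ± 0.07. Its input values were 15.7, 16.7 and 17.2 in WT, 13.1, 12.0 and 11.9 in NF110 KO and 10.5, 10.3 and 10.2 in NF90+NF110 KO (-0.63 ± 0.07 against WT). Its IP values were lower throughout, at 10.0, 9.37 and 9.37 in WT, 8.03, 8.37 and 9.83 in NF110 KO and 7.99, 6.78 and 7.16 in NF90+NF110 KO. Inputs did not overlap between genotypes, whereas WT and NF110 KO IPs did, with NF90+NF110 KO below both. Of the 8 genes Btaf1 had the widest gap between the fold change in NF45 KO and that in NF90+NF110 KO inputs in favour of NF45 KO. Mbtd1 went the other way.

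Mbtd1 read 21.7 and 21.1 FPKM in NF45 WT and 16 and 17.0 in NF45 KO, the smallest difference of the 8 in that set (-0.36 ± 0.07). In inputs it read 10.6, 11.9 and 15.0 in WT, 7.70, 6.74 and 8.19 in NF110 KO and 6.22, 5.26 and 6.05 in NF90+NF110 KO, where the fold change of -0.97 ± 0.13 was exceeded in size among the 8 only by Pcmt1 and Zswim6. IP values of 9.004, 9.92 and 10.9 in WT, 6.94, 6.99 and 8.55 in NF110 KO and 5.59, 3.63 and 5.55 in NF90+NF110 KO kept the order of the inputs without overlap between genotypes. WT input 3 was high and NF90+NF110 KO IP 2 low relative to the rest of their groups.

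Zswim6 had the lowest level of the 8 in WT inputs. It read 6.35 and 9.46 FPKM in NF45 WT and 1.85 and 1.91 in NF45 KO (-1.61 ± 0.19). Inputs gave 6.87, 7.21 and 6.06 in WT, 4.87, 5.83 and 5.76 in NF110 KO and 2.29, 2.62 and 2.39 in NF90+NF110 KO (-1.17 ± 0.11), and IPs gave 6.30, 7.62 and 7.25 in WT, 5.60, 5.75 and 5.18 in NF110 KO and 1.93, 2.32 and 2.06 in NF90+NF110 KO. No genotype overlapped another in any set. Zswim6 lies on chromosome 13, whose genes had a median deviation of 0.35 (log2 scale) in NF45 WT 2 and of -0.12 to -0.08 in the other NF45 libraries. Without NF45 WT 2 the fold change in NF45 KO was -1.35, and the chromosome's genes had a median of -0.24 with that library. In the RIP-seq sets the chromosome's level ran from -0.06 to 0.05.

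Of the membrane protein genes, Nkain1 read 43.2 and 42.2 FPKM in NF45 WT and 15.3 and 15.6 in NF45 KO (-1.41 ± 0.06), and 25.9, 24.7 and 24.2 in WT, 23.5, 20.8 and 21.2 in NF110 KO and 17.1, 15.8 and 14.3 in NF90+NF110 KO inputs (-0.64 ± 0.08). Its IPs read 26.4, 23.0 and 26.7 in WT, 22.6, 21.4 and 19.9 in NF110 KO and 19.5, 15.8 and 14.7 in NF90+NF110 KO. The genotypes stayed apart in both sets and NF90+NF110 KO IP 1 came closest to the NF110 KO libraries.

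Lrig2 read 9.37 and 7.74 FPKM in NF45 WT and 5.90 and 5.39 in NF45 KO (-0.52 ± 0.12). Its inputs were at 16.5, 18.3 and 17.0 in WT, 15.4, 14.0 and 13.3 in NF110 KO and 10.8, 11.1 and 9.81 in NF90+NF110 KO (-0.66 ± 0.08), with no overlap. Its IPs were at 11.8, 13.1 and 10.5 in WT, 11.5, 11.6 and 11.8 in NF110 KO and 8.23, 7.78 and 7.99 in NF90+NF110 KO, so that NF110 KO lay inside the WT range and NF90+NF110 KO below both.

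Apom rests on the fewest reads, 65 to 129 per input and 73 to 178 per IP of the 8. It read 11.01 and 9.30 FPKM in NF45 WT and 4.76 and 5.42 in NF45 KO (-0.87 ± 0.12). Inputs read 19.8, 20.6 and 16.6 in WT, 15.9, 17.4 and 15.4 in NF110 KO and 11.6, 11.7 and 10.6 in NF90+NF110 KO (-0.70 ± 0.09), and IPs read 21.0, 14.4 and 12.4 in WT, 12.0, 16.1 and 10.5 in NF110 KO and 9.74, 10.3 and 10.2 in NF90+NF110 KO. WT and NF110 KO overlapped in both sets, while NF90+NF110 KO stayed below them.

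**Figure D1:**
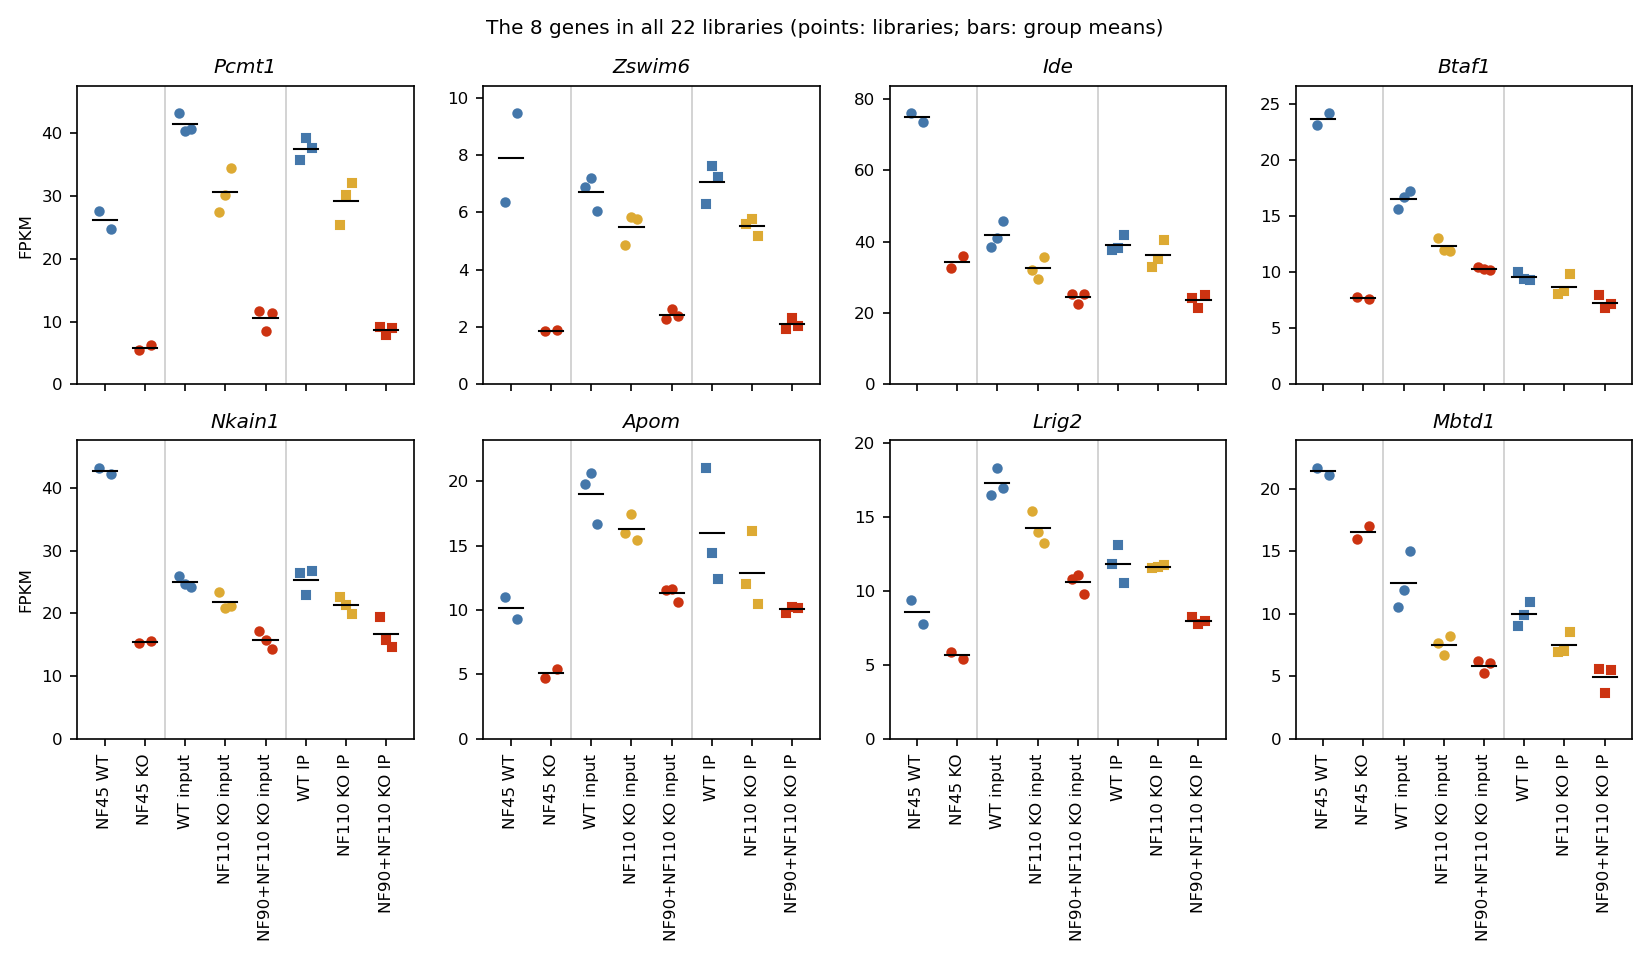
FPKM (vertical axes, from 0) of each of the 8 genes in all 22 libraries, by group on the horizontal axes, with circles for RNA-seq and input libraries, squares for IPs and bars for group means. NF90+NF110 KO libraries lie below WT and NF110 KO libraries in every panel, for inputs and for IPs.

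Across the contrasts that chose the genes, all 8 were called lower by limma (adjusted p under 0.05) in NF45 KO, where 16% of 11481 genes were, and in NF90+NF110 KO inputs, where 0.121% of 12444 were. The KO libraries lay wholly below the WT libraries for all 8 in both, as did 39.8% and 12.7% of genes. The authors' deposited table also called all 8 lower in both, where 17.4% and 2.89% of its genes were. With the chromosome 6 level as a term, 8 were called in NF90+NF110 KO inputs and 4.03% of genes. These counts follow from the choice, and nothing is read from them. The genes' median log2 fold change was -1.26 in NF45 KO and -0.72 in NF90+NF110 KO inputs, against -0.03 and -0.01 over all genes. With each NF45 library left out in turn, the median in NF45 KO ran from -1.30 to -1.22. Calls are not given there, since such a fit leaves 1 library in a group. In inputs, without WT 1, WT 2, WT 3, NF90+NF110 KO 1, 2 or 3 in turn, the calls were 1, 2, 3, 1, 2 and 2 of 8. Calls over all genes were 1 to 8 in these fits, in place of 26, while the median of the 8 ran from -0.75 to -0.70. In fits to the 6 libraries of these genotypes alone, 1 of the 8 was called, and 1 gene in all. The threshold admitted 9 genes called lower in both contrasts, the 8 described here and Xpo4, an exportin (log2 fold changes -0.9998 and -0.50, larger adjusted p of the pair 0.0378 by limma). Xpo4 lies on chromosome 14, whose genes had a median deviation of 0.38 in NF45 WT 2 and of -0.14 to -0.10 in the other NF45 libraries. Lrig2 was the last of the 8 inside it, with a larger adjusted p of 0.0359, and Ttc25 and Zfp318 were the first outside, both at 0.0542.

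**Figure D2:**
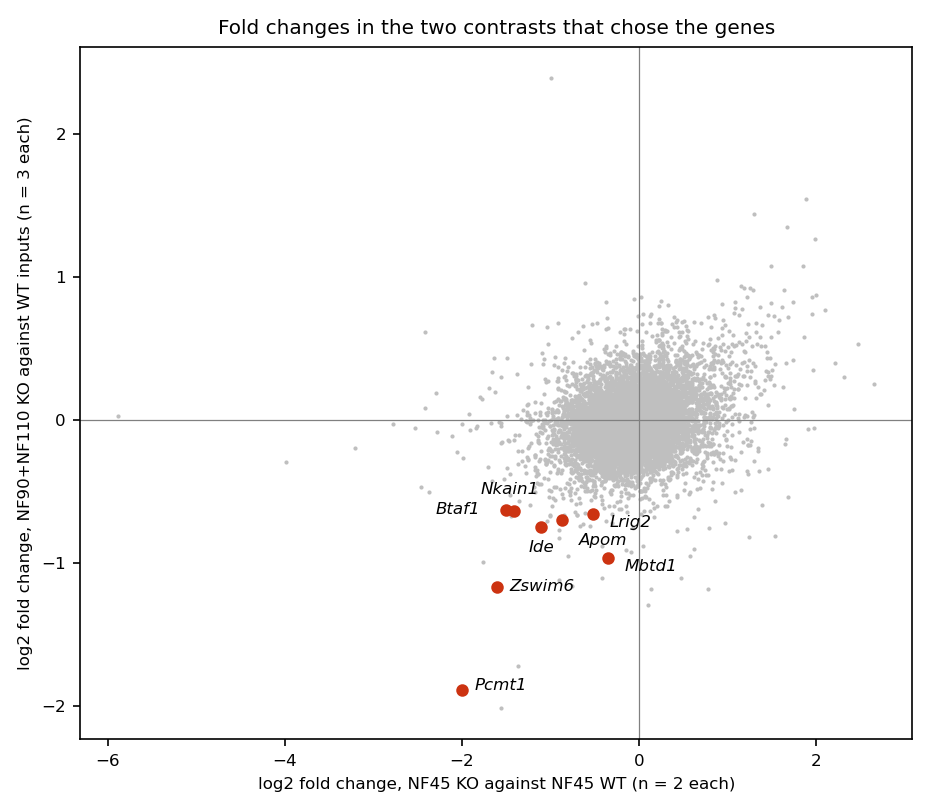
Log2 fold change of every gene tested in both contrasts, NF45 KO against NF45 WT on the horizontal axis and NF90+NF110 KO against WT inputs on the vertical axis, with the 8 genes in red and all others in grey. Pcmt1 (-1.997 and -1.89) and Zswim6 (-1.61 and -1.17) lie lowest of the 8, and the grey point at the far left is Ilf2.

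Loss of NF110 alone asks how far these RNAs differ when NF90 remains. In inputs the NF110 KO mean was below the WT mean for all 8 genes, with log2 fold changes from -0.65 ± 0.13 for Mbtd1 and -0.43 ± 0.12 for Pcmt1 to -0.19 ± 0.08 for Nkain1. Btaf1 was at -0.40 ± 0.07, Ide at -0.35 ± 0.09, Lrig2 at -0.26 ± 0.08, Zswim6 at -0.25 ± 0.11 and Apom at -0.21 ± 0.09. The median was -0.31, against 0.01 over all genes. In 7 of the 8, all but Apom, the NF110 KO libraries lay wholly below the WT libraries, which 12.3% of genes did. This contrast shares the WT inputs, high by the choice of the genes, so its values are a description. By limma's adjusted p 0 of the 8 were called, and 0% of genes were called lower and 0.00804% higher. At an unadjusted p under 0.05, 6 of the 8 and 2043 of 12444 genes qualified, and edgeR on recovered reads called 0 genes.

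The call depended on how the chromosome 6 split was treated. With its level as a term, limma called 4 of the 8 lower in NF110 KO inputs, Mbtd1, Btaf1, Ide and Pcmt1, where 3.01% of genes were called lower, and their log2 fold changes were -0.58, -0.39, -0.30 and -0.37. Among libraries high in chromosome 6 (2 NF110 KO and 1 WT) the median of the 8 was -0.31, and among those low in it (1 and 2) it was -0.26. In the authors' deposited table, 5 of the 8 passed an adjusted p of 0.05 for this contrast, Btaf1 (-0.41), Ide (-0.35), Lrig2 (-0.28), Mbtd1 (-0.64) and Pcmt1 (-0.42), where 3.43% of genes in the authors' deposited table passed in that direction.

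The step from WT to NF110 KO made up different shares of the whole difference between WT and NF90+NF110 KO. On the log2 scale it was 22.6% for Pcmt1 and 21.5% for Zswim6 in inputs, and 67.1% for Mbtd1 and 63.1% for Btaf1. Ide reached 47.2%, Lrig2 40.1%, Apom 29.9% and Nkain1 29.2%. In IPs the shares were 17.8% for Pcmt1, 22.2% for Zswim6, 16.3% for Ide, 35.2% for Btaf1, 3.39% for Lrig2, 41.4% for Nkain1 and 40.9% for Mbtd1. That of Apom was 47.4%, but 19% without WT IP 1, which was high, and 75% without NF110 KO IP 2. These shares are ratios of small differences from 3 libraries each, and differences between them were not tested. In inputs the whole difference is one for which the genes were chosen, so the input shares are affected by the choice and are a description.

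**Figure D3:**
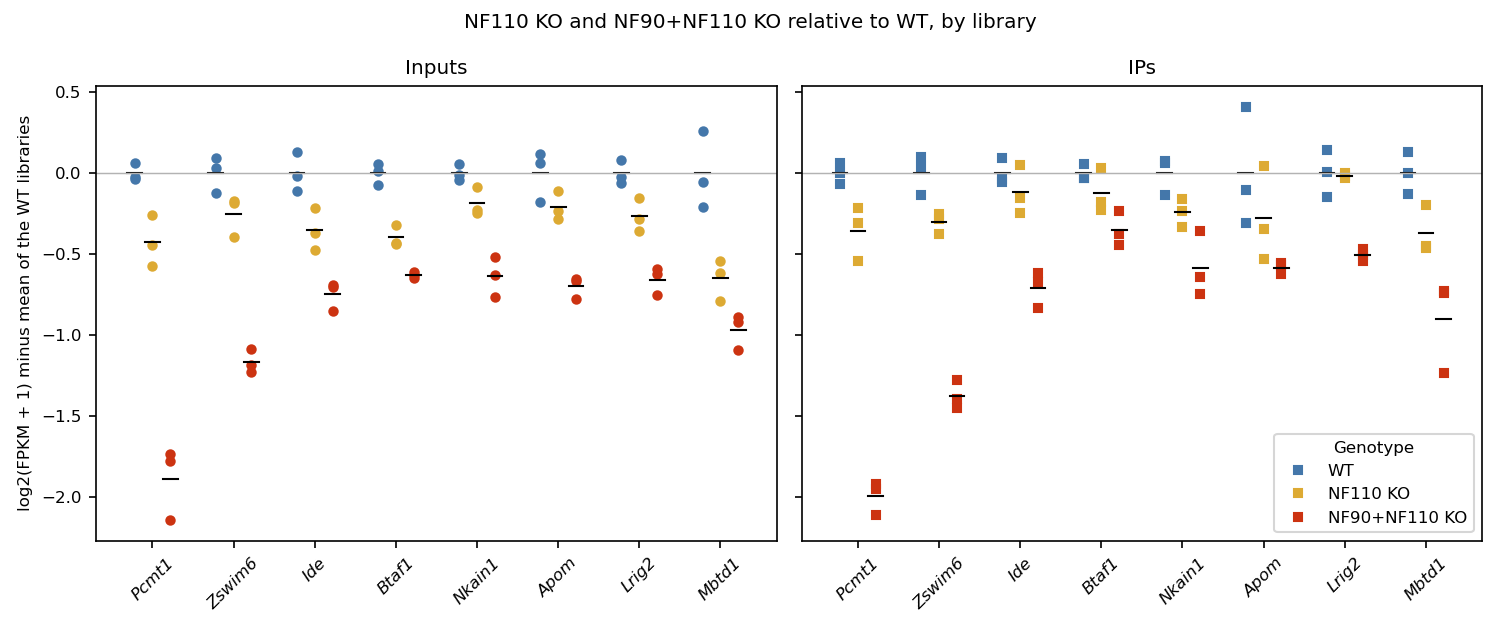
Log2(FPKM + 1) of each library minus the mean of the WT libraries, for inputs (left) and IPs (right), with the 8 genes on the horizontal axis, genotypes by colour and bars for means. Pcmt1 and Zswim6 show a smaller step from WT to NF110 KO than from there to NF90+NF110 KO, whereas Mbtd1 and Btaf1 inputs show most of their difference already in NF110 KO. The first step of Pcmt1 in inputs (-0.43) is nevertheless larger in size than that of Btaf1 (-0.40).

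The second step, from NF110 KO to NF90+NF110 KO, asks what differs when NF90 is lost as well. In inputs Pcmt1 was at -1.46 ± 0.12 and Zswim6 at -0.92 ± 0.11 on the log2 scale. The other 6 had values of -0.49 (Apom), -0.45 (Nkain1), -0.40 (Ide), -0.40 (Lrig2), -0.32 (Mbtd1) and -0.23 (Btaf1). NF90+NF110 KO libraries lay wholly below NF110 KO libraries for all 8, which 8.38% of genes did. This contrast uses the NF90+NF110 KO inputs, low by the choice of the genes, so these values are a description and nothing is read from the counts that follow. By limma 2 of the 8, Pcmt1 and Zswim6, were called lower, beside 0.0402% of all genes (0.00804% were higher). The authors' deposited table called 5 of the 8 lower here (Pcmt1, Zswim6, Ide, Lrig2 and Nkain1), against 0.701% of its genes. The limma calls were 0 of the 8 without NF110 KO 2 or in a fit to the 6 libraries alone, 1 (Pcmt1) without any of NF110 KO 1, NF110 KO 3, NF90+NF110 KO 1 and NF90+NF110 KO 3, and 5 with the chromosome 6 term, where 0.41% of genes were called lower.

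IP libraries were not used to choose the genes, and they give contrasts of the same genotypes in other libraries. In a difference between IPs, RNA level and recovery by the antibody cannot be told apart. Each IP shares its experiment, and the chromosome 6 level seen there, with an input, and the WT and NF90+NF110 KO inputs were used in the choice. The p-values are therefore not independent of the choice. In NF90+NF110 KO against WT IPs, Pcmt1 fell by 1.996 (SE 0.10, adjusted p = 7.38e-05 by limma), the lowest value of 12266 genes. Zswim6 fell by 1.38 (SE 0.10, adjusted p = 0.00125), rank 7 from the lowest, and Ide fell by 0.71 (SE 0.10, adjusted p = 0.036), again by limma. In all, 3 of the 8 were called lower against 0.13% of all genes (0.0326% were higher). The other 5 also had means below the WT mean, at -0.90 for Mbtd1, -0.58 for Apom, -0.58 for Nkain1, -0.51 for Lrig2 and -0.35 for Btaf1, with adjusted p of 0.0543, 0.21, 0.0621, 0.0543 and 0.145 by limma. The NF90+NF110 KO IPs lay wholly below the WT IPs for all 8, and for 12% of genes. The median of the 8 was -0.65 against -0.02 over all genes. Pcmt1 and Zswim6 were called whichever library was left out, but Ide was not called without WT 1, WT 2, WT 3, NF90+NF110 KO 1 or NF90+NF110 KO 3 (adjusted p from 0.0878 to 0.139 by limma). With the chromosome 6 term 8 of 8 were called (6.09% of genes lower), and with the replicate number as a block 6 were (1.05%). The median was -0.87 between the single libraries high in chromosome 6 and -0.60 among those low in it.

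Without NF110 alone, the IPs gave 0 of 8 calls and 0% of genes called lower (688 genes, and 3 of the 8, at an unadjusted p under 0.05, with 0 genes by edgeR). Log2 fold changes ran from -0.37 ± 0.15 for Mbtd1 and -0.36 ± 0.10 for Pcmt1 to -0.02 ± 0.09 for Lrig2, whose value was 0.056 without WT IP 2. With the chromosome 6 term 0 of the 8 were called (0.0163% of genes lower). NF110 KO IPs lay wholly below WT IPs for 4 of the 8, Pcmt1, Zswim6, Nkain1 and Mbtd1, against 6.58% of genes. Between NF90+NF110 KO and NF110 KO IPs, Pcmt1 fell by 1.64 (SE 0.10, adjusted p = 0.000429 by limma) and Zswim6 fell by 1.07 (SE 0.10, adjusted p = 0.011 by limma), 2 of 8 against 0.0734% of genes lower and 0.0163% higher. The chromosome 6 term gave 5 of 8, against 3.89%. NF90+NF110 KO IPs lay wholly below NF110 KO IPs for all 8, and for 11.9% of genes. Pcmt1 was called whichever library was left out. Zswim6 was not called without NF110 KO 1, NF110 KO 2, NF90+NF110 KO 1 or NF90+NF110 KO 3 (adjusted p from 0.0968 to 0.127 by limma).

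RIP-seq asks whether an RNA is richer in the NF90/NF110 IP than in its input. The WT inputs, high by the choice of the genes, enter the WT comparison, which is therefore a description. Btaf1 was lower in the WT IP than in its input by a log2 difference of -0.73 ± 0.08 and Lrig2 by -0.52 ± 0.07, followed by Mbtd1 (-0.29) and Apom (-0.27), on the log2(FPKM + 1) scale. Pcmt1 was at -0.14, Ide at -0.09, Zswim6 at 0.06 and Nkain1 at 0.02. By limma with a term per experiment the first 4 of these 8 were called lower and 0 higher, beside 23.6% of genes lower and 28.9% higher. Without WT experiment 3 the calls were 2 of 8, and without the term per experiment also 2, Btaf1 and Lrig2.

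NF110 KO and NF90+NF110 KO cells were measured the same way. The NF110 KO inputs were on neither side of the contrasts that chose the genes. They did enter the spread that limma shares over the 9 inputs, so the p-values for NF110 KO are not free of the choice. In NF110 KO, Btaf1 (-0.46), Apom (-0.33) and Lrig2 (-0.27) were called lower in the IP and Ide (0.15, SE 0.05, adjusted p = 0.0278 by limma) higher, at backgrounds of 17% and 21.1%. Ide was not called in this comparison in the authors' deposited table (0.14). Without experiment 1 of NF110 KO 1 of the 8 was called lower. In NF90+NF110 KO, whose label says the antigen is absent, Btaf1 (-0.45), Lrig2 (-0.36), Pcmt1 (-0.25) and Mbtd1 (-0.22) were called lower, with inputs that did enter the choice, at a background of 21.1% lower and 23.4% higher. The IP was below its input in 9 of 9 experiments for Btaf1 (FPKM ratio 0.543 to 0.824), Lrig2 (0.62 to 0.886) and Pcmt1 (0.783 to 0.998), whatever the genotype. How many of all genes did so was not counted, so nothing is read from these 9 of 9. Pcmt1 was not called in WT (adjusted p = 0.0634 by limma) or in NF110 KO (adjusted p = 0.389 by limma). The authors' deposited table called Btaf1 and Lrig2 alone of the 8 lower in the IP in each genotype, against 13%, 6.97% and 10.2% of its genes in WT, NF110 KO and NF90+NF110 KO. The ratio fell on both sides of 1 for the other 5, for example 0.914 to 1.18 for Ide and 0.93 to 1.14 for Nkain1.

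The difference in enrichment between cells with and without the antigen tests binding above the background of the procedure. NF90+NF110 KO inputs, low by the choice of the genes, enter both differences below, and WT inputs the first. For WT minus NF90+NF110 KO it was called for 0 of the 8, at a background of 4.61% higher and 1.21% lower, and edgeR also called 0 of the 8. Values ran from -0.28 (SE 0.11, adjusted p = 0.139 by limma) for Btaf1, 1 gene of the 8 at an unadjusted p under 0.05, to 0.21 (SE 0.12, adjusted p = 0.301) for Zswim6, with Pcmt1 at 0.11 (SE 0.08). For NF110 KO minus NF90+NF110 KO, 0 of the 8 were called again (6% higher and 3.91% lower in the background), with Ide at 0.20 (SE 0.07, adjusted p = 0.0807 by limma), Pcmt1 at 0.18 (SE 0.08) and Zswim6 at 0.16 (SE 0.12). Standard errors over the 8 genes ran from 0.07 to 0.14, so differences of that order could not be called from these libraries. Some larger ones, such as that of Btaf1, were not called either.

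**Figure D4:**
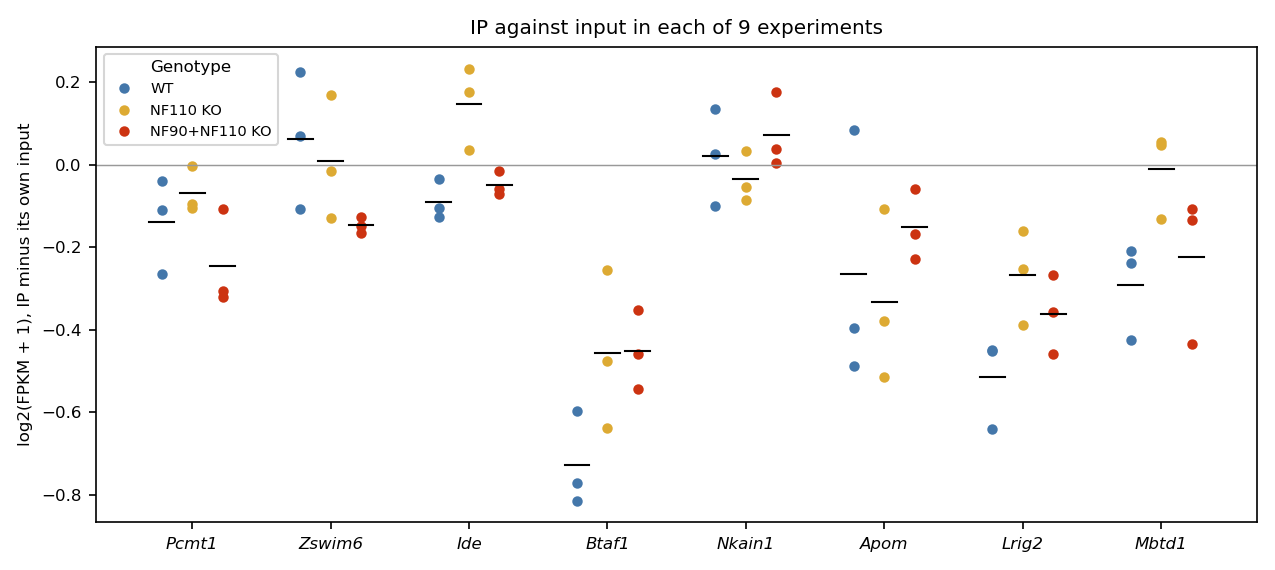
Log2(FPKM + 1) in the IP minus that in its own input (vertical axis) for each of 9 experiments, by gene on the horizontal axis and genotype by colour, with bars for means. Btaf1, Lrig2 and Pcmt1 lie below 0 in all 9 experiments, including the 3 of NF90+NF110 KO. The share of all genes that do so was not counted.

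Genes around the 8 were examined for differences of a whole neighbourhood. RefSeq places the start of Pcmt1 51 bases from that of Lats1, a kinase of the Hippo pathway, on the other strand, and both starts lie in the Pcmt1 window printed above. Lats1 averaged 5.54 ± 0.21 FPKM (SD, n = 2) in NF45 WT and 5.48 ± 0.21 in NF45 KO, and 6.76 ± 0.27, 6.14 ± 0.43 and 5.82 ± 0.24 (SD, n = 3) in WT, NF110 KO and NF90+NF110 KO inputs. Its log2 fold changes were -0.014 (SE 0.08, adjusted p = 0.915) in NF45 KO, -0.19 (SE 0.09, adjusted p = 0.359) in NF90+NF110 KO inputs and -0.0058 (SE 0.10, adjusted p = 0.99) in NF90+NF110 KO IPs, by limma, where Pcmt1 was at -1.997, -1.89 and -1.996. Nup43, a nuclear pore gene inside the span of Pcmt1, was at 0.13, 0.08 and -0.07. The whole RefSeq span of Pcmt1 runs to 7681337, upstream of the start used, and overlaps Nup43, Lats1 and A630066F11Rik. No source used here says whether counting used strand, so reads in the shared bases could have been assigned to either gene.

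Mbtd1 starts 84 bases from Utp18, a gene of ribosome assembly, also on the other strand. Utp18 averaged 53.2 ± 0.99 FPKM in NF45 WT and 57.7 ± 0.02 in NF45 KO (SD, n = 2), and 39.0 ± 3.1, 34.8 ± 2.8 and 38.0 ± 1.7 in WT, NF110 KO and NF90+NF110 KO inputs (SD, n = 3). Its log2 fold changes were 0.12 (SE 0.06, adjusted p = 0.183) in NF45 KO and -0.03 (SE 0.09, adjusted p = 0.898) in NF90+NF110 KO inputs by limma, where Mbtd1 was at -0.36 and -0.97. In NF110 KO inputs Utp18 was at -0.16 (SE 0.09) and Mbtd1 at -0.65. The partner at each of these paired starts had a smaller fold change than the gene itself, and the difference between partners was not tested. Pcmt1 and Mbtd1 were chosen for low values and their partners were not, so a smaller change in a partner follows from the choice.

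Btaf1 and Ide lie on chromosome 19 (36926079 to 37014057 and 37268743 to 37334544 on GRCm38.p6), 254.7 kb apart, and are the only pair of the 8 on one chromosome. Of the 3 genes between them, A330032B11Rik was at -0.28 (adjusted p = 0.417 by limma) in NF90+NF110 KO inputs and was not tested in NF45 KO. Cpeb3, an RNA-binding translational regulator, was at 0.17 in NF45 KO and 0.13 in NF90+NF110 KO inputs. March5, a mitochondrial ubiquitin ligase, was at 0.60 (adjusted p = 0.0141 by limma) and 0.28 (adjusted p = 0.327). Within 500 kb of each gene, NF90+NF110 KO inputs had 6 to 45 tested genes, and apart from Btaf1 and Ide themselves 0 were called. Only 0.121% of all genes were called lower there and 0.0884% higher, so nothing is read from that 0. In NF45 KO, where 16% of all genes were called lower, the neighbours of Lrig2 included 3 of 10 called lower, among them Slc16a1, a monocarboxylate transporter (-0.76), and Magi3, a scaffold protein (-0.58), both larger in size than Lrig2 itself (-0.52). The neighbours of Zswim6 had a median of -0.41 in NF45 KO with 1 of 6 called lower, on the chromosome that stood high in NF45 WT 2.

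**Figure D5:**
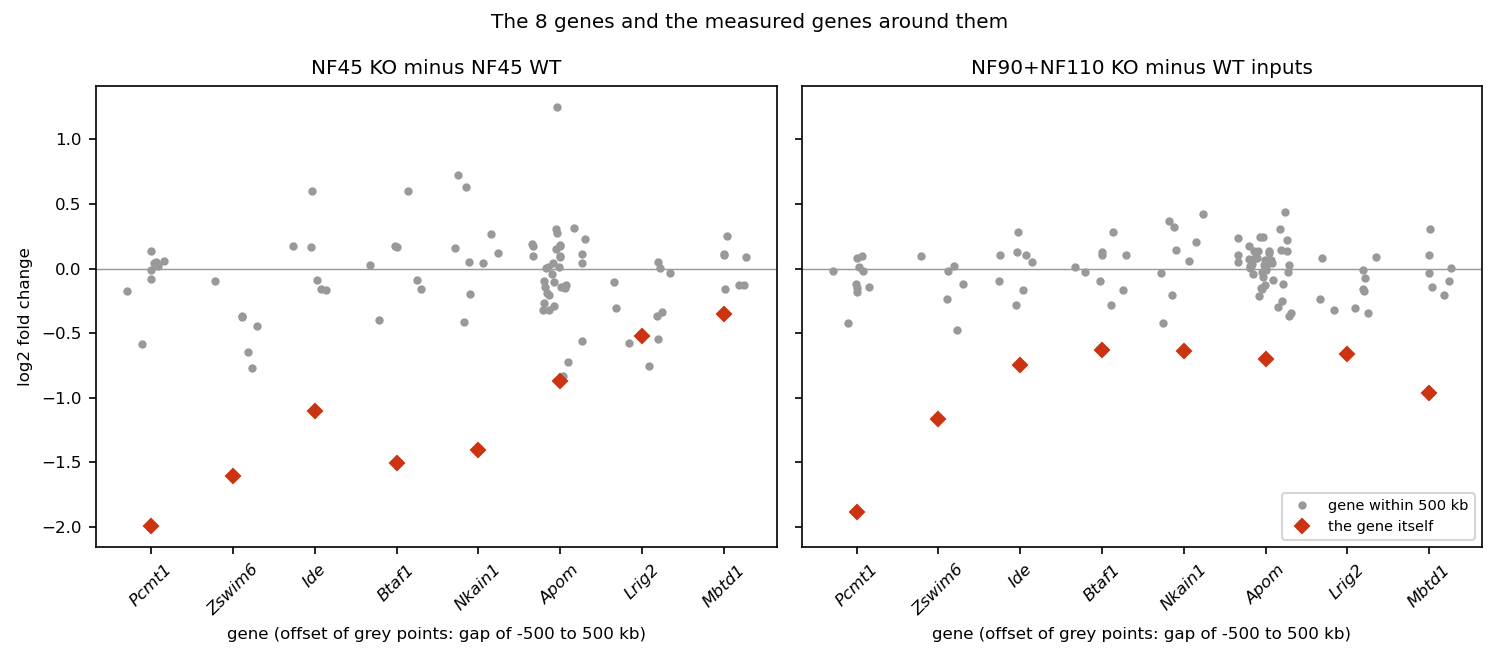
Log2 fold change (vertical axis) of each of the 8 genes (red) and of the tested genes within 500 kb of it (grey, offset from left to right by the gap in kb), in NF45 KO (left) and NF90+NF110 KO inputs (right). Btaf1 and Ide, neighbours of each other, are not drawn as grey points. In NF90+NF110 KO inputs each red point lies below all grey points of its column. The red genes were chosen for low values in both contrasts, so this position supports nothing. In NF45 KO Lrig2 lies among its neighbours.

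Relatives and partners of the 8 genes were counted in 7 lists. In NF90+NF110 KO and NF110 KO inputs and IPs, 0 members of any of the 7 lists were called. Few genes of any kind were called there: 0.121% and 0.0884% were lower and higher in NF90+NF110 KO inputs, and 0% were lower in NF110 KO inputs. Nothing about the lists is therefore read from these counts. In NF45 KO, with 16% of genes called lower and 11.7% higher, some were. Of 8 carboxyl methyltransferase and M16 protease genes, 2 rose, the Pcmt1 relatives Pcmtd2 (0.57) and Pcmtd1 (0.41), and 1 fell, the mitochondrial protease Pitrm1 (-1.34). Of 8 genes that handle TBP, 0 rose and 2 fell, Gtf2a1 of TFIIA (-0.89) and Taf1 of TFIID (-0.28). Of 21 tested TIP60 complex and MBT-domain genes, 2 rose, among them the ATPase Ruvbl2 (0.39), and 3 fell, Sfmbt2 (-1.56), Ing3 (-0.55) and Ruvbl1 (-0.50). Among 6 tested SWIM zinc finger genes 1 fell, Zswim7 (-0.42). Among 6 LRIG and receptor tyrosine kinase genes 1 rose, Lrig3 (0.83), and 2 fell, Erbb3 (-0.86) and Lrig1 (-0.34). Among 6 sodium pump genes and interactors 1 rose, Nkain4 (1.02), and 1 fell, the pump subunit Atp1b1 (-0.35). Of 6 apolipoprotein and sphingosine-1-phosphate genes 1 fell, the receptor S1pr2 (-0.66). Ing3, Ruvbl1 and Lrig1 lie on chromosome 6, whose genes had a median deviation of 0.25 and 0.22 in NF45 WT and -0.23 and -0.22 in NF45 KO, so the fall of these 3 and that of their chromosome cannot be told apart. Pitrm1 lies on chromosome 13, which stood high in NF45 WT 2. Medians of these lists in NF45 KO lay between -0.19 and 0.10, against -0.03 over all genes.

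Likeness of profiles was measured by Pearson's r over the 22 libraries, each library set centred on its own mean. Among the 8, Pcmt1 and Zswim6 were the closest pair (r = 0.967) and Mbtd1 and Apom the farthest (r = 0.626). Of 11152 genes compared, those most like the mean of the 8 were Fkbp1b (r = 0.923), an immunophilin, Dcaf6 (0.923), a ubiquitin ligase adaptor, Ttc25 (0.913), of cilia, Palm3 (0.907), on chromosome 8, which stood high in both NF45 WT and low in both NF45 KO libraries, Larp1b (0.894), a La-related protein, and Slc39a6 (0.894), a zinc transporter. Fkbp1b was at -1.04 in NF45 KO, -0.71 in NF90+NF110 KO inputs and -0.52 in NF110 KO inputs, and Dcaf6 at -0.91, -0.77 and -0.41. Slc39a6 was at -0.54, -0.29 and 0.09, so its NF110 KO value had the opposite sign to those of the 8. The libraries share genotypes and experiments, and these correlations are a description. They include the NF45 and input libraries that chose the genes, so high values among the 8, and in genes like them, follow in part from the choice.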

How the data were processed

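Total and immunoprecipitated RNA of 22 libraries in 8 groups was analysed from 2 deposited tables. The authors' table of FPKM holds 22330 genes. The other holds normalised counts (signal), which the authors scaled per library with DESeq2 per the file headers, and their log2 fold changes with standard errors and adjusted p-values. Build mm10 and, with no role or order, HTSeq 0.6.1, Cuffnorm, TopHat2 2.0.10, DESeq2 and Cufflinks 2.2.1 appear in the submitters' processing notes. Dividing each library by its smallest value gave whole reads (within 0.1) for 100% of nonzero values.

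Tests used log2(FPKM + 1) and left out genes that did not reach FPKM 1 in 2 NF45 libraries, or in 3 libraries of a RIP-seq fit. The pseudocount understates changes of low genes. limma 3.58.1 (R 4.3.3, trend and robust) was fitted to 4 NF45 libraries (11481 genes, 2 residual degrees of freedom), 9 inputs (12444, 6), 9 IPs (12266, 6) and 18 libraries with a term per experiment (12693, 6), two-sided, with Benjamini-Hochberg adjustment over all genes. Each IP is paired with its input by the study's design. Alternatives were no filter, pseudocount 0.1, median centring, edgeR 4.0.16 (quasi-likelihood) on the recovered reads, a replicate block, the chromosome 6 level as a term, fits to the compared libraries only and leaving out each replicate. Values within libraries of like chromosome 6 level were added after seeing the data. The fit was tested on simulated data. Replicates differed by more than sampling noise.

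Genes named are the 8, Ilf2, up to 4 called genes of each list in NF45 KO, the 6 most similar profiles, nearest expressed neighbours and the genes at the edge of the choice. Nup43, the genes between Btaf1 and Ide and the called neighbours of Lrig2 were named after their values were seen. A check of the NF110 KO and NF90+NF110 KO labels is not reported here. The genes and lists were chosen with earlier results of these data known. Positions and promoters are from RefSeq on GRCm38.p6.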

Additional observations from a re-analysis of the deposited data

How the results depend on the processing

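The 8 genes' median log2 fold change kept its sign in every alternative for the 6 comparisons of genotypes among inputs and IPs and for NF45 KO. It moved by more than the replicate spread to -1.29 (NF45 KO), -0.76 (NF90+NF110 KO against WT inputs) and -0.45 (NF90+NF110 KO against NF110 KO inputs) with a pseudocount of 0.1, to -1.20, -0.69 and -0.40 with median centring, and with edgeR to -0.75 for NF90+NF110 KO inputs and -0.26 for IP minus input in NF90+NF110 KO (main value -0.19). Within libraries of like chromosome 6 level it moved to -0.26 (NF110 KO inputs, low), -0.87 (NF90+NF110 KO IPs against WT, high) and -0.58 (against NF110 KO IPs, high).

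Calls among the 8 moved more. Fits to the compared libraries alone, which have fewer residual degrees of freedom, called 1 rather than 8 in NF90+NF110 KO inputs, 0 rather than 2 against NF110 KO inputs and 1 rather than 2 in the same contrast of IPs. With the chromosome 6 term 4 rather than 0 were called in NF110 KO inputs, 5 rather than 2 against NF110 KO in inputs and in IPs, and 8 rather than 3 in NF90+NF110 KO against WT IPs. Over all genes that term raised calls in the inputs from 26 to 1057 (NF90+NF110 KO against WT), 1 to 728 (NF110 KO) and 6 to 78, and in the IPs from 20 to 1137, 0 to 3 and 11 to 674. Fits to the compared libraries alone called 1, 0, 4 and 1 genes in place of 26, 6, 20 and 11 in the contrasts with NF90+NF110 KO. With no filter the counts were 16, 10 and 4 in place of 26, 20 and 11, and the enrichment differences had 214 and 320 in place of 739 and 1258. By edgeR they were 11 in place of 20 for NF90+NF110 KO against WT IPs, and 1168 and 1949 for the enrichment differences. The cause was not tested.

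Same-numbered libraries of different genotypes were not shown to be paired: their deviations correlated from -0.477 to 0.656 in inputs and -0.437 to 0.712 in IPs, over 0.1 in 5 of 9 pairs of each, and by 0.245 in the NF45 set, which has 2 pairs. With the number as a replicate block, 6 rather than 3 of the 8 were called in NF90+NF110 KO against WT IPs (168 rather than 20 genes in all), and 48 rather than 26 genes in NF90+NF110 KO inputs. It changed no other count of the 8. In the IP against input fits, whose pairing is by design, leaving out the term per experiment (no replicate block) called 2 rather than 4 of the 8 in WT and in NF90+NF110 KO. Over all genes it called 3491, 1865 and 2433 in place of 6659, 4832 and 5655 in WT, NF110 KO and NF90+NF110 KO, and 0 and 1 in the enrichment differences.

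With 1 replicate left out at a time, the median ran from -1.30 to -1.22 in NF45 KO, where such a fit leaves 1 library in a group. Calls among the 8 ran from 1 to 3 in NF90+NF110 KO inputs (median -0.75 to -0.70) and 0 to 0 in NF110 KO inputs (-0.35 to -0.29). They ran from 0 to 2 in NF90+NF110 KO against NF110 KO inputs (-0.46 to -0.40). In IPs they ran from 2 to 4 in NF90+NF110 KO (-0.71 to -0.62) and 0 to 0 in NF110 KO (-0.29 to -0.18). Against NF110 KO IPs, NF90+NF110 KO gave 1 to 3 (-0.56 to -0.42). IP minus input gave 2 to 4, 1 to 3 and 3 to 4 in WT, NF110 KO and NF90+NF110 KO. The enrichment differences gave 0 each. Calls over all genes moved too, to 1 to 8 in NF90+NF110 KO inputs and 3 to 208 in NF90+NF110 KO IPs. Signs of genes that were not called turned in IP minus input for WT Nkain1 (-0.013 by edgeR, -0.037 to 0.081 with a replicate left out) and Zswim6 (-0.019 to 0.15), and for NF110 KO Zswim6 (-0.017 by edgeR, -0.073 to 0.077) and Mbtd1 (-0.043 to 0.052). They also turned for Lrig2 between NF110 KO and WT IPs (-0.092 to 0.056). In the enrichment difference of WT minus NF90+NF110 KO they turned for Nkain1 (-0.11 to 0.0079) and Mbtd1 (-0.17 to 0.0015). In that of NF110 KO minus NF90+NF110 KO, Btaf1 was at 0.0021 with pseudocount 0.1, 0.011 with median centring and 0.0096 by edgeR, and from -0.11 to 0.086 with a replicate left out. Apom rests on the fewest reads of the 8, 65 to 178 per RIP-seq library.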
